A study of Nicotiana with 12 samples.

Results

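Leaves of well-watered tobacco that carried PSARK::IPT were set against leaves of well-watered wild-type (WT) tobacco. In the transgene PSARK::IPT, the isopentenyltransferase gene IPT, whose enzyme starts the synthesis of cytokinins, is driven by the promoter of a senescence-associated receptor kinase (SARK). The plants that carry it are called IPT plants here. The comparison takes 6 of the 12 arrays of the series, 3 of watered IPT leaves and 3 of watered WT leaves, chosen by their titles. The other 6 arrays hold 3 IPT and 3 WT samples under water deficit.

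All plants were moved to the greenhouse at an age of 3 weeks, and leaves were taken after 45 days of the water treatments, at an age of about 10 weeks. Watered pots of both genotypes received 1000 mL of water a day, and pots under water deficit received 300 mL. The labels name the genus Nicotiana only, and they call the 3 samples of a group biological replicates without giving the number of plants in a sample or of transgenic lines. If IPT stands for 1 line, the site of insertion and the transgene cannot be told apart. The IPT transcript is not among the probe sets with a gene symbol, so the genotype labels could not be checked against it.

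Cytokinins are plant hormones that promote cell division and the growth of leaves and hold back leaf senescence, the ordered breakdown of chlorophyll and protein in ageing leaves. Isopentenyltransferase makes their precursor by joining an isoprene unit to an adenine nucleotide. A promoter that becomes active when a leaf starts to age gives cytokinin there, and such constructs are known for keeping tobacco leaves green. The comparison asks which transcripts differ between the genotypes when water is not limiting.

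RNA of tobacco was hybridised to an array made for tomato, so a level depends on how well the tobacco transcript matches the tomato probes. Genotype differences are therefore taken for the same probe set between samples. Levels of different probe sets are set side by side only to mark weak or strong signal and to choose 1 probe set a gene. Values are log2 RMA values, on which a difference of 1 is a 2-fold change. Of 10101 probe sets tested, 909 carry a gene symbol, which name 802 tomato genes, and 9192 carry none. The threshold was a limma p under 0.05 after Benjamini-Hochberg adjustment over all probe sets, and "higher" and "lower" are used of those that passed it. Leaves were measured whole, so fewer cells of a type and less RNA per cell cannot be told apart.

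All 6 genes of photosystems and carbon fixation and all 3 light-harvesting genes lay above the median probe set on average, as did 2 of 10 flower and fruit markers, 1 of 2 root markers and 0 of 2 trichome markers. These counts describe signal only, since a level also depends on the match to the tomato probes, and they do not settle the tissue. None of these markers of flower, fruit and trichomes passed between the genotypes, nor did either of the 2 root markers. Arrays of a group correlated at 0.982 to 0.992 across probe sets, and the array medians lay between 3.38 and 3.45. In watered leaves the medians were 3.42 to 3.45 on the IPT arrays and 3.38 to 3.41 on the WT arrays, without overlap (exact two-sided permutation p = 0.1).

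The poly-A controls, bacterial transcripts added before labelling, did not stand at the same level in the 2 watered groups. Their mean log2 level was 7.99 to 8.30 on the IPT arrays, against 9.88 to 9.93 on the WT arrays (difference -1.77, exact two-sided permutation p = 0.1). All 6 arrays under water deficit lay at 7.38 to 8.44, so the watered WT arrays stood apart from the other 9. With 3 arrays against 3, 0.1 is the smallest p possible. The difference between 3' and 5' probe sets of these controls, which grows when labelling stops short, was 2.35 to 3.21 on the IPT arrays and 2.17 to 2.32 on the WT arrays (difference 0.56, exact p = 0.1). For leaf transcripts the same measure went the other way for ubiquitin (-0.58, exact p = 0.1) and had differences of 0.28 for GAPDH, -0.19 for EF1a and 0.04 for actin (exact p = 0.3, 0.3 and 0.9). The levels of the 3' probe sets of GAPDH, actin and ubiquitin were each below those of WT on all 3 IPT arrays (-0.54, -0.45 and -0.81, exact p = 0.1 each). The hybridisation controls lay at 9.77 to 10.14 on the IPT arrays and 10.15 to 10.22 on the WT arrays (difference -0.27, exact p = 0.1). What this difference means for the results was not tested. The level of the poly-A controls and the genotype cannot be told apart in watered leaves, and its part in the results was not tested; the 3' minus 5' difference was fitted as a covariate, and calls that it ends are named beside the results.

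**Figure D1:**
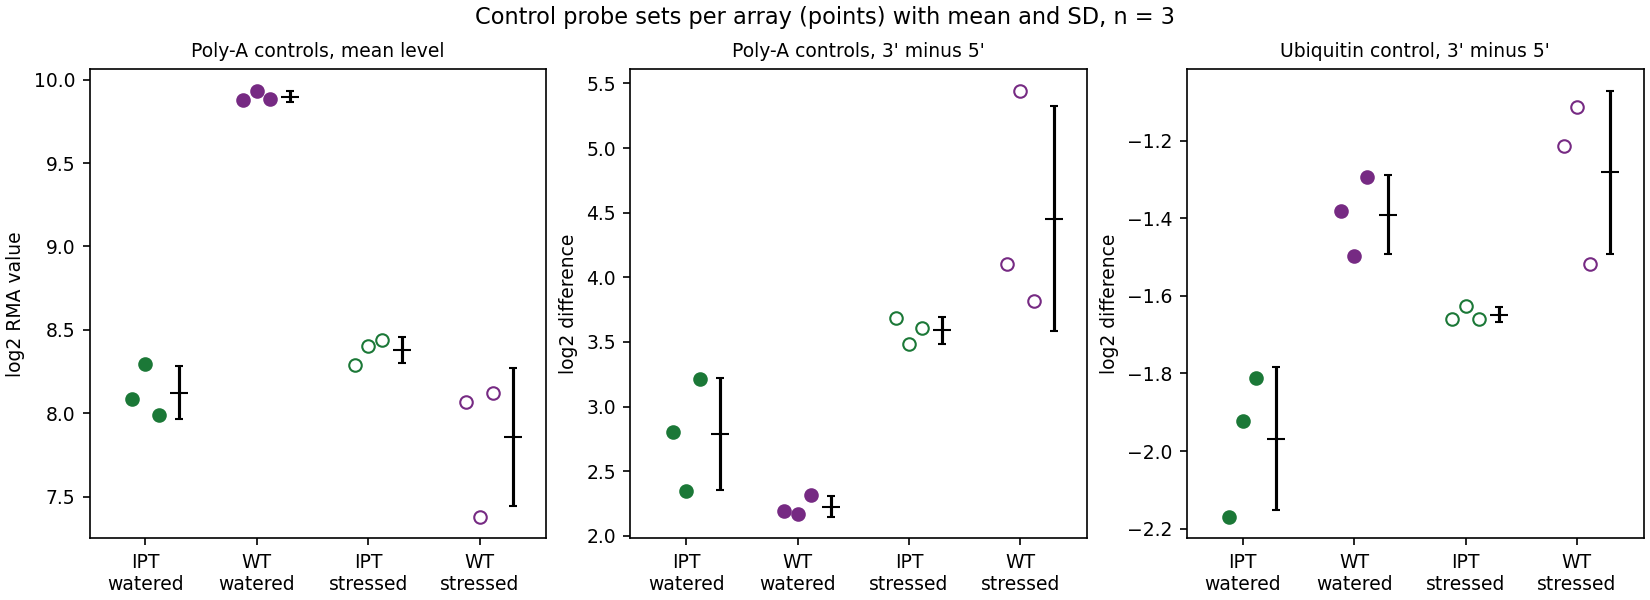
Control probe sets on the 12 arrays, as the mean log2 level of the poly-A controls, their 3' minus 5' difference and the 3' minus 5' difference of ubiquitin. Points are arrays and the bars beside them the mean and SD of 3; in watered leaves the poly-A level is 7.99 to 8.30 for IPT and 9.88 to 9.93 for WT, without overlap.

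Between the watered genotypes 1396 probe sets passed, 13.8% of those tested. Of these, 778 were higher in IPT leaves (7.7% of all probe sets) and 618 lower (6.12%), so 55.7% of the calls were higher. With every array centred on its own median the split was 606 higher and 743 lower, 44.9% higher, so the balance of the 2 directions depends on the scaling. At least 2-fold differences that passed numbered 125 higher (1.24% of all probe sets) and 145 lower (1.44%). The median size of a difference was 0.62 among the probe sets that passed and 0.17 among all, with a median standard error (SE) of 0.14. The IPT and WT arrays did not overlap in 1386 of the 1396, while 31.5% of all probe sets had groups without overlap. Where groups of a gene named below do not overlap, this describes its values and is no further support for its call. In 156 of those that passed both group means lay below the median probe-set level, in 163 only 1 did, and in 1077 both lay above it.

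The 2 largest rises and the 2 largest falls among probe sets without a gene symbol were each larger than the difference of any probe set with one. Les.228.1.S1_a_at had log2 values of 6.81, 6.89 and 6.53 in IPT leaves, against 1.88, 2.79 and 2.65 in WT leaves (19.7-fold higher, limma adjusted p = 2.93e-10). LesAffx.64333.1.S1_at had 7.20, 7.39 and 7.16 in IPT leaves, against 3.75, 3.17 and 2.39 in WT leaves (17.7-fold higher). In both, WT leaves were near or below the median of the array, so the folds are uncertain, and IPT leaves were far above it. LesAffx.44987.1.S1_at had 7.78, 8.0 and 7.63 in IPT leaves, against 11.64, 11.70 and 11.58 in WT leaves (14.3-fold lower, limma adjusted p = 2.48e-09). LesAffx.66331.1.S1_at had 3.88, 3.75 and 3.50 in IPT leaves, against 7.66, 7.54 and 7.34 in WT leaves (14-fold lower). The first of these is a transcript with strong signal in both genotypes, and the other came close to the array median in IPT leaves. The annotation used here gives these 4 no gene.

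**Figure D2:**
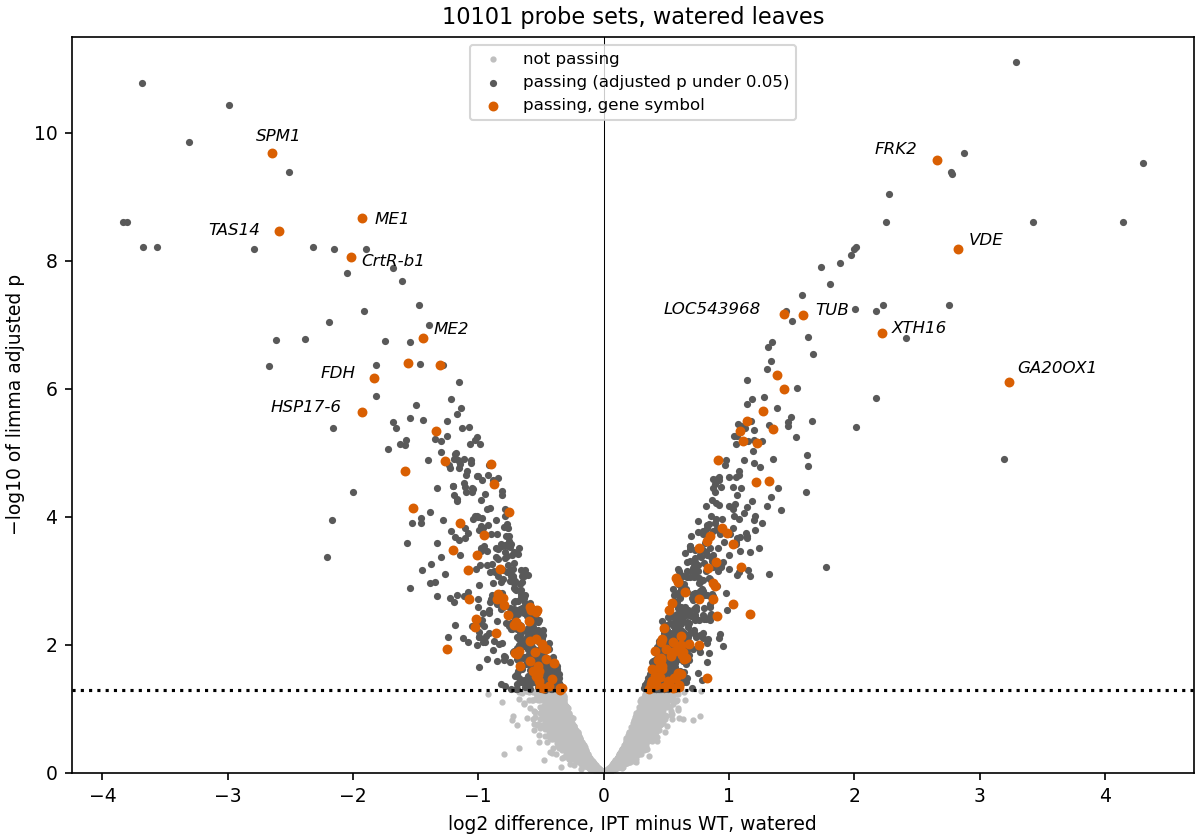
Each point is 1 of 10101 probe sets, with the log2 difference (watered IPT minus WT) across and -log10 of the limma adjusted p upwards. The dotted line marks an adjusted p of 0.05; orange points are the 151 probe sets with a gene symbol that passed, 84 to the right and 67 to the left of 0.

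Among probe sets with a symbol 151 passed, 84 higher and 67 lower. Taking 1 probe set a gene, the one with the highest mean, 17.8% of the 802 genes passed, 9.73% higher and 8.1% lower, and the counts of the gene groups below are read against these shares. The groups were chosen with earlier results of these data known, so a share above 17.8% describes the list and is no test. Of 21 genes with several probe sets and at least 1 that passed, all probe sets passed in 1 direction in 2, and none had probe sets passing in both directions.

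Of 8 gibberellin genes 1 was higher (12.5%), below the 17.8% of all named genes. This gene, GA20OX1, encodes a gibberellin 20-oxidase, which carries out late steps in making active gibberellin, a hormone of elongation. It had log2 values of 6.00, 5.70 and 5.67 in IPT leaves, against 1.95, 2.65 and 3.07 in WT leaves (difference 3.23, SE 0.29, limma adjusted p = 7.76e-07). The groups were far apart, and all 3 WT arrays lay below the array median, so the fold is uncertain. The other 7 gibberellin genes did not pass. They included the 20-oxidases 20ox-2 (0.10) and 20ox-3 (0.33), the 3-oxidase GA3ox1 (0.01), CPS of an early step (0.18), and the response repressors GAI (0.18) and SPY (-0.04). Only 4 of the 8 gibberellin genes lay above the median probe-set level.

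XTH16, a xyloglucan endotransglucosylase/hydrolase that cuts and rejoins the tethers between cellulose fibres, had 7.93, 8.04 and 7.71 in IPT leaves, against 5.77, 5.55 and 5.69 in WT leaves (difference 2.22, SE 0.17, limma adjusted p = 1.36e-07). The IPT arrays all lay above the WT arrays, and its other 2 probe sets passed too, with smaller differences of 1.35 and 0.94. Of 39 genes of cell wall loosening, 4 were higher and 1 lower (12.8%), below the 17.8% of all named genes. XTH7 of the same family (0.62), the beta-galactosidase TBG7 (0.57) and the endoglucanase cel5 (0.45) were higher. TBG6, another beta-galactosidase, had 3.95, 3.67 and 3.66 in IPT leaves, against 5.17, 5.21 and 4.51 in WT leaves (difference -1.20, SE 0.19, limma adjusted p = 0.000324). The beta-galactosidases TBG6 and TBG7 thus differed in opposite directions. None of the expansins, proteins that loosen the wall without cutting it, passed. PMEU1, a pectin methylesterase, was the 1 of 9 pectin genes (11.1%) that was higher (0.76, SE 0.15). Only 2 of these 9 genes lay above the median probe-set level.

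Several of these calls rest on few arrays. XTH7 and cel5 each passed in only 1 of 6 fits without 1 watered array (limma adjusted p up to 0.13 and 0.107), and TBG7 did not pass without IPT replicate 1 or WT replicate 2 (up to 0.0774). The count of 4 higher cell wall genes was 1 without IPT replicate 1 and 2 without IPT replicate 2, IPT replicate 3 or WT replicate 1. With the 3' minus 5' covariate TBG7 (adjusted p = 0.054) and XTH7 (0.0503) did not pass.

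Of 16 genes of the cytoskeleton and cell division 2 were higher (12.5%). TUB, which encodes a tubulin, the subunit of microtubules, had 9.56, 9.79 and 9.74 in IPT leaves, against 8.0, 8.14 and 8.20 in WT leaves (difference 1.59, SE 0.12, limma adjusted p = 7.14e-08). The arrays of each group lay close together and the groups were well apart. CYCD3, a D-type cyclin whose transcript responds to cytokinin in Arabidopsis, had 5.04, 4.97 and 5.03 in IPT leaves, against 4.37, 4.78 and 3.91 in WT leaves (difference 0.66, SE 0.17, limma adjusted p = 0.0158). The IPT arrays agreed closely, while WT replicate 2 came within 0.2 of them, and the call was lost without IPT replicate 1, IPT replicate 3 or WT replicate 3 (adjusted p up to 0.0804). CYCD3 was the only gene with a symbol in the list of cytokinin and senescence genes. The other 14 genes of the cytoskeleton and cell division did not pass. They included the B-type kinases CDKB1 (-0.42) and CDKB2 (0.26) and the replication clamp PCNA (-0.19), and the median of the list was 0.21, against 0.02 over all probe sets.

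**Figure D3:**
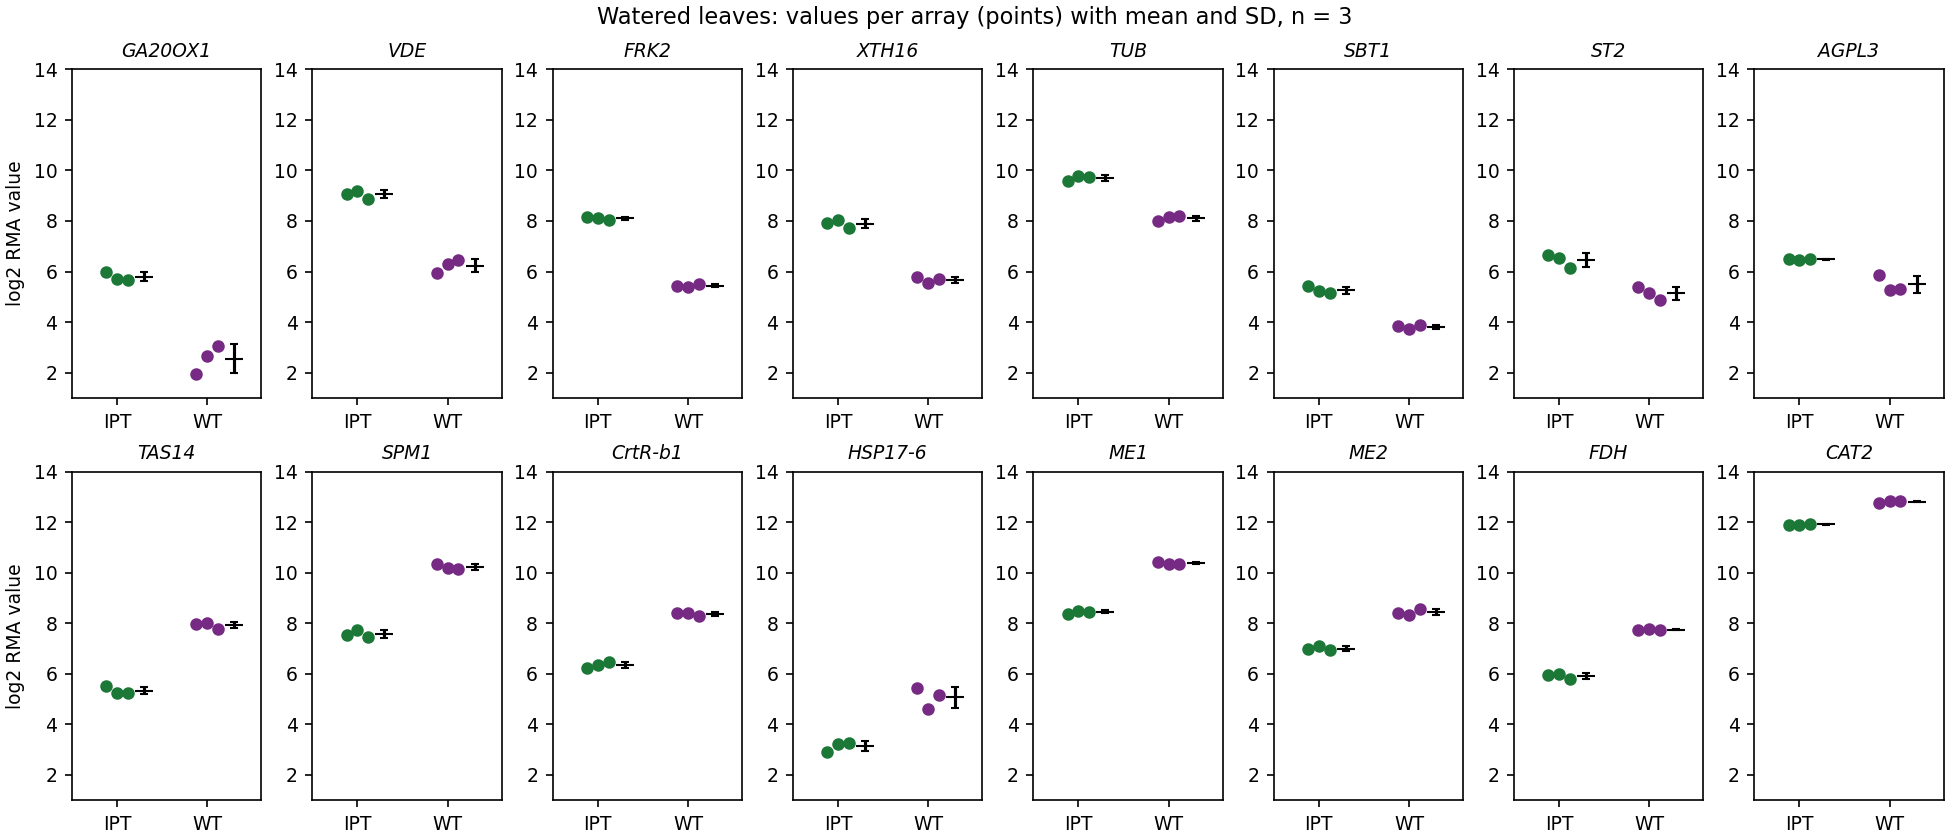
Log2 RMA values of 16 genes on the 3 watered IPT arrays and the 3 watered WT arrays, with mean and SD of 3 beside the points. The upper row holds genes that were higher in IPT leaves and the lower row genes that were lower. The groups overlap in none of the 16, as in 1386 of all 1396 probe sets that passed.

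Pigment genes moved in both directions, and those at a single step could differ several-fold. VDE, violaxanthin de-epoxidase, converts violaxanthin to zeaxanthin in strong light. It had 9.07, 9.20 and 8.88 in IPT leaves, against 5.95, 6.29 and 6.45 in WT leaves (difference 2.83, SE 0.17, limma adjusted p = 6.47e-09), and its other probe set passed as well (1.22). CrtR-b1, a beta-carotene hydroxylase that makes zeaxanthin from carotene, had 6.22, 6.33 and 6.48 in IPT leaves, against 8.39, 8.40 and 8.29 in WT leaves (difference -2.02, SE 0.13, limma adjusted p = 8.85e-09). The groups were clearly apart in both genes, and in opposite directions, although both enzymes yield zeaxanthin. The other 6 genes of xanthophyll and abscisic acid synthesis did not pass. Only 3 of the 8 genes of this list lay above the median probe-set level, so those that did not pass are not shown to be unchanged. ZEP, zeaxanthin epoxidase, which reverses the VDE reaction, stood at -0.30, and NCED1, which cleaves xanthophylls on the way to abscisic acid, at -0.26.

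Of 11 genes of carotene synthesis 3 were higher and 2 lower (45.5%), with a median difference of 0.13. The plastid terminal oxidase PTOX, which reoxidises plastoquinol during desaturation of carotenes, had 5.27, 5.80 and 5.63 in IPT leaves, against 4.19, 4.98 and 4.81 in WT leaves (difference 0.91, SE 0.19, limma adjusted p = 0.00359). Its groups did not overlap, although replicate 1 lay lowest in both. Both lycopene cyclases were higher, the epsilon-cyclase CRTL-E-1 (0.63, SE 0.16) and the beta-cyclase LCY1 (0.48, SE 0.11). Both phytoene synthases, which make the first carotene, were lower, PSY2 (-0.69, SE 0.18) and Psy1 (-0.49, SE 0.12). For Psy1 the other 2 probe sets stood at 0.28 and 0.12 and did not pass, so its direction depends on the probe set. PSY2 was lost in 4 of the 6 fits without 1 watered array (all but those without IPT replicate 1 or WT replicate 2; limma adjusted p up to 0.0729), Psy1 without IPT replicate 1 (0.0537) and CRTL-E-1 without WT replicate 1 (0.0531).

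Genes of photosynthesis differed little in size, and mostly upwards. Of 6 genes of photosystems and carbon fixation 5 were higher and none lower (83.3%), with a median difference of 0.46. PSBP, PSBO and PsbQ encode the proteins that shield the oxygen-evolving centre of photosystem II. PSBP had 10.98, 11.10 and 10.94 in IPT leaves, against 10.48, 10.41 and 10.49 in WT leaves (difference 0.55, SE 0.11, limma adjusted p = 0.00221). PSBO had 13.03, 12.97 and 12.96 in IPT leaves, against 12.47, 12.50 and 12.60 in WT leaves (difference 0.46, SE 0.11). PsbQ had 11.82, 11.79 and 11.81 in IPT leaves, against 11.39, 11.40 and 11.40 in WT leaves (difference 0.41, SE 0.10). The 3 genes agreed in size, and the arrays of each group lay close together. The photosystem II gene PSBR (0.04) did not pass.

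PETE, plastocyanin, which carries electrons to photosystem I, had 8.94, 9.17 and 8.97 in IPT leaves, against 8.67, 8.67 and 8.33 in WT leaves (difference 0.47, SE 0.13, limma adjusted p = 0.0217). The brightest probe set of ca2, a carbonic anhydrase, had 12.07, 12.10 and 11.91 in IPT leaves, against 11.45, 11.47 and 11.49 in WT leaves (difference 0.55, SE 0.18, limma adjusted p = 0.0474). Neither gene's groups overlapped, but neither call held throughout. PETE was lost without IPT replicate 2 or WT replicate 3 (up to 0.111) and with the 3' minus 5' covariate (0.0556). That of ca2 passed in none of 6 fits without 1 watered array (limma adjusted p up to 0.135), nor with centred arrays (0.0742), quantile normalization (0.0765) or the replicate number as a block (0.0555). Of the other ca2 probe sets 1 passed (0.76) and 2 did not (0.77 and -0.13). The count of 5 held in none of the 6 fits without 1 watered array, and it was 3 without IPT replicate 2 or WT replicate 3. None of the 3 light-harvesting genes passed: CAB6A, CAB4 and CAB5, chlorophyll a/b-binding proteins, stood at 0.25, -0.07 and -0.19.

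In carbon metabolism the calls included strong ones in both directions. FRK2, a fructokinase, which phosphorylates the fructose set free from sucrose, had 8.15, 8.10 and 8.04 in IPT leaves, against 5.41, 5.40 and 5.50 in WT leaves (difference 2.66, SE 0.12, limma adjusted p = 2.71e-10). Within each group the arrays lay close together. The other fructokinases did not pass, with FRK1 at 0.20, FRK3 at -0.39 and FRK4 at 0.29. AGPL3, a large subunit of ADP-glucose pyrophosphorylase, which makes the building block of starch, had 6.49, 6.45 and 6.48 in IPT leaves, against 5.88, 5.27 and 5.32 in WT leaves (difference 0.99, SE 0.15, limma adjusted p = 0.000178). WT replicate 1 lay closest to the IPT arrays but did not reach them.

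SPS, sucrose-phosphate synthase of sucrose synthesis, had 4.94, 4.78 and 4.59 in IPT leaves, against 6.36, 5.75 and 5.43 in WT leaves (difference -1.08, SE 0.21, limma adjusted p = 0.00194). BMY3, a beta-amylase, which breaks down starch, had 2.60, 3.18 and 3.07 in IPT leaves, against 4.92, 4.03 and 3.66 in WT leaves (difference -1.25, SE 0.31, limma adjusted p = 0.0116). In BMY3 all IPT arrays lay below the array median, and WT replicate 1 was well above the other WT arrays. BMY3 was lost without that array or IPT replicate 1 (limma adjusted p up to 0.0666), and of its other probe sets 1 passed (-0.85) and 1 did not (-0.72). The sucrose synthase sus3 was lower (-0.52, SE 0.15) but passed in 2 of the 6 fits without 1 array (up to 0.133). In all, 2 of 22 sucrose and starch genes were higher and 3 lower (22.7%), near the 17.8% of all named genes. The count of 3 lower was 1 without WT replicate 1. The sucrose transporters SUT2 (0.08) and SUT4 (-0.12) and the hexokinases hxk1 (0.36) and Hxk2 (-0.18) did not pass.

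Of 10 organic acid genes 5 were lower in IPT leaves and 1 higher (60.0%), with a median difference of -0.27. ME1, a malic enzyme, which splits malate into pyruvate and carbon dioxide, had 8.38, 8.49 and 8.46 in IPT leaves, against 10.40, 10.36 and 10.34 in WT leaves (difference -1.92, SE 0.10, limma adjusted p = 2.11e-09). ME2, another malic enzyme, had 6.97, 7.09 and 6.93 in IPT leaves, against 8.41, 8.33 and 8.56 in WT leaves (difference -1.44, SE 0.11, limma adjusted p = 1.6e-07). FDH, formate dehydrogenase, which oxidises formate to carbon dioxide, had 5.95, 5.98 and 5.79 in IPT leaves, against 7.73, 7.77 and 7.72 in WT leaves (difference -1.83, SE 0.16, limma adjusted p = 6.66e-07). In all 3 genes the groups were more than a unit apart, and the arrays within a group agreed closely. Malate dehydrogenases, which interconvert malate and oxaloacetate, differed in both directions. Of these, cMDH (-0.67, SE 0.15) and mdh (-0.34, SE 0.11) were lower and mMDH1 (0.43, SE 0.11) higher, while gMDH (-0.20) and chMDH (0.30) did not pass. Only the call of cMDH among them held without any 1 of the 6 watered arrays: mdh, whose adjusted p reached the threshold, passed neither in any of those fits (limma adjusted p up to 0.152) nor with the 3' minus 5' covariate (0.0634), the replicate number as a block (0.0745) or quantile normalization (0.0647), and mMDH1 passed only without IPT replicate 3 or WT replicate 2 (up to 0.0773).

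Of 14 nitrogen and polyamine genes 4 were higher and 4 lower (57.1%). GS2, the plastid glutamine synthetase that fixes ammonium, had 12.28, 12.24 and 12.24 in IPT leaves, against 11.63, 11.64 and 11.71 in WT leaves (difference 0.59, SE 0.11, limma adjusted p = 0.00105). SAHH, which clears S-adenosylhomocysteine after methylation reactions, had 10.25, 10.40 and 10.23 in IPT leaves, against 9.43, 9.32 and 9.40 in WT leaves (difference 0.91, SE 0.10, limma adjusted p = 1.29e-05). SAM1, an S-adenosylmethionine synthetase that makes the donor of those reactions, had 8.78, 8.82 and 8.89 in IPT leaves, against 9.77, 9.60 and 9.63 in WT leaves (difference -0.84, SE 0.16, limma adjusted p = 0.00163). SAHH and SAM1 thus differed in opposite directions, and in both the groups lay well apart. SAM3, of the same list, stood at -0.28 and did not pass.

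Of 3 transaminases of GABA, the amino acid gamma-aminobutyrate, GABA-TP3 had 8.32, 8.08 and 8.23 in IPT leaves, against 7.29, 7.31 and 7.43 in WT leaves (difference 0.87, SE 0.16). GABA-TP2 was higher as well (0.55, SE 0.13), and GABA-TP1 (0.17) did not pass. PRO2, which makes the proline precursor pyrroline-5-carboxylate, had 5.73, 5.85 and 5.64 in IPT leaves, against 6.56, 6.53 and 6.43 in WT leaves (difference -0.76, SE 0.16, limma adjusted p = 0.00339). None of these groups overlapped. Arginine decarboxylase ADC, of putrescine synthesis (-0.55, SE 0.14), and the arginase ARG1 (-0.44, SE 0.14) were lower, and ornithine decarboxylase ODC (0.14) did not pass. ADC was lost without IPT replicate 2, IPT replicate 3 or WT replicate 3 (limma adjusted p up to 0.0687), and ARG1 in all fits but that without IPT replicate 2 (up to 0.225) and with the 3' minus 5' covariate (0.125). The count of 4 lower held in none of the fits without 1 watered array, and it was 2 without IPT replicate 3 or WT replicate 3.

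Among 18 genes of nutrient transport 3 were higher and none lower (16.7%). The sulfate transporter ST2 had 6.67, 6.55 and 6.15 in IPT leaves, against 5.39, 5.16 and 4.87 in WT leaves (difference 1.32, SE 0.16, limma adjusted p = 2.71e-05). In both genotypes replicate 1 was highest and replicate 3 lowest, and the groups did not overlap. The proline transporter ProT3 (0.41, SE 0.12) and the plasma membrane proton pump LHA2 (0.40, SE 0.12) were higher too, each in 1 of the 6 fits without 1 array (limma adjusted p up to 0.127 and 0.192). With centred arrays neither passed (0.06 and 0.0848), and with the replicate number as a block neither did (0.0503 and 0.0648). The ammonium transporter AMT1-2 (-0.60), the amino acid permease AAP1 (0.55) and the other sulfate transporter ST1 (0.04) did not pass.

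Of 6 genes of protection against drying 4 were lower in watered IPT leaves and none higher (66.7%), with a median difference of -1.0, against 0.02 over all probe sets. TAS14, a dehydrin, a hydrophilic protein of drying and salt-stressed tissue, had 5.51, 5.25 and 5.24 in IPT leaves, against 7.97, 8.01 and 7.78 in WT leaves (difference -2.59, SE 0.15, limma adjusted p = 3.39e-09). Lipid transfer proteins are small secreted proteins linked with cuticle formation. TSW12 of this kind had 5.14, 5.06 and 5.03 in IPT leaves, against 6.32, 6.46 and 6.36 in WT leaves (difference -1.31, SE 0.11, limma adjusted p = 4.3e-07). LE16 of the same kind had 3.64, 3.38 and 4.07 in IPT leaves, against 5.70, 4.76 and 5.20 in WT leaves (difference -1.52, SE 0.21, limma adjusted p = 7.26e-05). LE16 scattered most, but the groups overlapped in none of the 3 genes. The lipid transfer gene ltpg1 was lower (-0.70, SE 0.18) and did not pass without IPT replicate 1, IPT replicate 2 or WT replicate 1 (up to 0.0635). LEA14 (0.31), of a late-embryogenesis-abundant protein, and ER5 (-0.02) did not pass. With the 3' minus 5' covariate all 4 still passed.

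Heat-shock genes encode chaperones that keep other proteins folded. Of 7 of them 5 were lower and none higher (71.4%), with a median difference of -0.53. HSP17-6, a small heat-shock protein, had 2.91, 3.23 and 3.27 in IPT leaves, against 5.42, 4.60 and 5.17 in WT leaves (difference -1.93, SE 0.19, limma adjusted p = 2.34e-06). The IPT arrays lay below the array median, so the size of this difference is uncertain. Hsp90-1, of the HSP90 family, had 8.37, 8.39 and 8.40 in IPT leaves, against 8.98, 8.86 and 8.92 in WT leaves (difference -0.53, SE 0.11, limma adjusted p = 0.00285). The arrays agreed closely within each group, and the groups did not overlap. HSC80 of the same family (-0.59), the mitochondrial MTSHP (-0.66) and the plastid HSP21 (-0.48) were lower from levels nearer the array median. HSP21 passed only in the fit without IPT replicate 1 among the 6 that left out 1 array (limma adjusted p up to 0.18), and MTSHP only without IPT replicate 1 or WT replicate 2 (up to 0.115). With the 3' minus 5' covariate neither passed (0.147 and 0.0983), and the count of 5 was then 3. The count was 3 as well without IPT replicate 2, IPT replicate 3, WT replicate 1 or WT replicate 3.

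Of 20 genes of oxidative stress 5 were lower and none higher (25.0%), with a median difference of -0.10. CAT2, a catalase, which breaks down the hydrogen peroxide of photorespiration, had 11.90, 11.89 and 11.93 in IPT leaves, against 12.77, 12.83 and 12.82 in WT leaves (difference -0.90, SE 0.11, limma adjusted p = 1.5e-05). SODCC.1, a copper/zinc superoxide dismutase, had 8.72, 8.89 and 8.81 in IPT leaves, against 9.55, 9.56 and 9.55 in WT leaves (difference -0.75, SE 0.10, limma adjusted p = 8.34e-05). Both held without any 1 of the 6 arrays and with the 3' minus 5' covariate. The other 3 were ascorbate peroxidase APX2 (-0.40), dehydroascorbate reductase DHAR1 (-0.35) and GSH1, of the first step of glutathione synthesis (-0.51), and with that covariate none of them passed (limma adjusted p = 0.052, 0.136 and 0.0873). Without 1 array APX2 was lost in 4 of 6 fits, DHAR1 in 6 and GSH1 in 4 (up to 0.071, 0.137 and 0.115). The count of 5 held in none of the 6 fits without 1 array. It was 2 without IPT replicate 1, IPT replicate 3 or WT replicate 1, and 3 without WT replicate 3 or with only the 6 watered arrays in the fit. A dimmer probe set of the glutathione peroxidase GPXle-2 was higher (0.62), but its brighter one did not pass (0.36). The plastid iron superoxide dismutase FESOD (0.21), the catalase cat1 (0.07) and GLDH, of the last step of ascorbate synthesis (0.35), did not pass.

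Hormone genes beyond gibberellin held few calls. Of 43 ethylene genes 3 were higher and 1 lower (9.3%), below the share of all named genes. ACC oxidases form ethylene in the last step of its synthesis. ACO6 had 6.01, 6.39 and 6.02 in IPT leaves, against 4.80, 5.36 and 5.17 in WT leaves (difference 1.03, SE 0.20, limma adjusted p = 0.0023), while its other probe sets did not pass (0.35 and 0.08). ACO4 (0.76, SE 0.18) and ERF4, a transcription factor of the ethylene response family (0.60, SE 0.19), were higher, and JERF1 of that family (-0.80, SE 0.16) was lower. For ACO6 and JERF1 the groups did not overlap and the calls held without any 1 array. ACO4 was lost without WT replicate 1 (0.0519), when the count of 3 was 1, and at an adjusted p of 0.05 with the 3' minus 5' covariate. ERF4 passed only without IPT replicate 2 among those 6 fits (limma adjusted p up to 0.179), and neither with that covariate (0.125) nor with centred arrays (0.0644). Of 7 auxin genes 1 passed, IAA3, a repressor of auxin responses (-0.60, SE 0.13), on values below the array median in both groups. Only 2 of the 7 auxin genes and 21 of the 43 ethylene genes lay above the median probe-set level. A gene of these lists that did not pass is thus not shown to be unchanged.

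Of 21 lipid genes 3 were higher and 1 lower (19.0%), near the 17.8% of all named genes. HPL, hydroperoxide lyase, which makes the volatile aldehydes of cut leaves, had 5.86, 6.03 and 6.18 in IPT leaves, against 5.04, 5.16 and 4.37 in WT leaves (difference 1.17, SE 0.24, limma adjusted p = 0.00327). PLDa1, a phospholipase D, which releases phosphatidic acid from membranes, had 4.73, 4.62 and 4.87 in IPT leaves, against 3.36, 3.39 and 3.80 in WT leaves (difference 1.23, SE 0.13, limma adjusted p = 7e-06). WT replicate 3 lay apart from the other WT arrays in both genes, downwards in HPL and upwards in PLDa1. Fad7, a plastid desaturase that makes trienoic fatty acids, had 6.97, 7.25 and 6.97 in IPT leaves, against 6.59, 6.69 and 6.54 in WT leaves (difference 0.46, SE 0.12). COI1, the jasmonate receptor, was lower (-0.41, SE 0.12). Fad7 was lost without IPT replicate 2, WT replicate 1 or WT replicate 3 (up to 0.0887), and COI1 without IPT replicate 1, IPT replicate 3, WT replicate 2 or WT replicate 3 (limma adjusted p up to 0.142).

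Signalling, proteolysis and defence added single genes. SBT1, a subtilisin-like protease, had 5.41, 5.22 and 5.13 in IPT leaves, against 3.84, 3.72 and 3.88 in WT leaves (difference 1.44, SE 0.13, limma adjusted p = 9.91e-07), the only 1 of 5 proteases that passed. MKK4, a kinase that activates MAP kinases, had 5.56, 5.54 and 5.39 in IPT leaves, against 4.25, 4.59 and 4.55 in WT leaves (difference 1.03, SE 0.16, limma adjusted p = 0.000263). SNF1, the catalytic subunit of a kinase of low-energy signalling, had 8.36, 8.44 and 8.58 in IPT leaves, against 9.28, 9.37 and 9.36 in WT leaves (difference -0.88, SE 0.11, limma adjusted p = 3.12e-05). In all 3 genes the groups did not overlap. The other 10 of 12 kinase and calcium genes did not pass.

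Among 26 transcription factors 1 was higher (3.85%), DREB3 of the family that binds dehydration-responsive elements (0.47, SE 0.11). COP1, the ubiquitin ligase that represses light responses, was the 1 lower of 11 light receptor and clock genes (-0.59, SE 0.16). The pathogenesis-related PR-P2 was the 1 lower of 15 defence genes (-0.52, SE 0.14), and DFR, dihydroflavonol reductase of anthocyanin synthesis, the 1 higher of 8 phenylpropanoid genes (0.48, SE 0.15). COP1, PR-P2 and DFR were lost in 3, 3 and 5 of the 6 fits without 1 array (limma adjusted p up to 0.0968, 0.106 and 0.219). COP1 was lost without IPT replicate 2, IPT replicate 3 or WT replicate 3, and PR-P2 without IPT replicate 1, IPT replicate 3 or WT replicate 1. PR-P2 and DFR did not pass with the 3' minus 5' covariate either (0.0722 and 0.179). Shares of 3.85% for transcription factors and 6.67% for defence genes lay below the 17.8% of all named genes. Only 9 of the 26 transcription factors and 6 of the 15 defence genes lay above the median probe-set level. Genes of these lists that did not pass are thus not shown to be unchanged.

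Other strong differences lay in genes to which no role is given here. SPM1 had 7.54, 7.74 and 7.45 in IPT leaves, against 10.35, 10.18 and 10.13 in WT leaves (difference -2.64, SE 0.12, limma adjusted p = 2.08e-10). CIP1 (-1.59), CIP2b (-1.56), LOC543605 (-1.33) and SDH (-1.27) were lower, and the other probe set of CIP1 did not pass (-0.36). Higher were LOC543968 (1.44), LOC543561 (1.39), LOC543812 (1.27), GPI1 (1.15), LOC544217 (1.11) and LOC544237 (1.10). SDH had 9.21, 9.0 and 9.16 in IPT leaves, against 10.58, 10.18 and 10.42 in WT leaves. GPI1 had 9.13, 9.07 and 9.08 in IPT leaves, against 7.99, 7.92 and 7.92 in WT leaves. In each of these 11 genes the IPT and WT arrays did not overlap, as in 1386 of the 1396 probe sets that passed. Each call held without any 1 of the 6 watered arrays, and the genes were named for their large differences on these arrays.

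**Figure D4:**
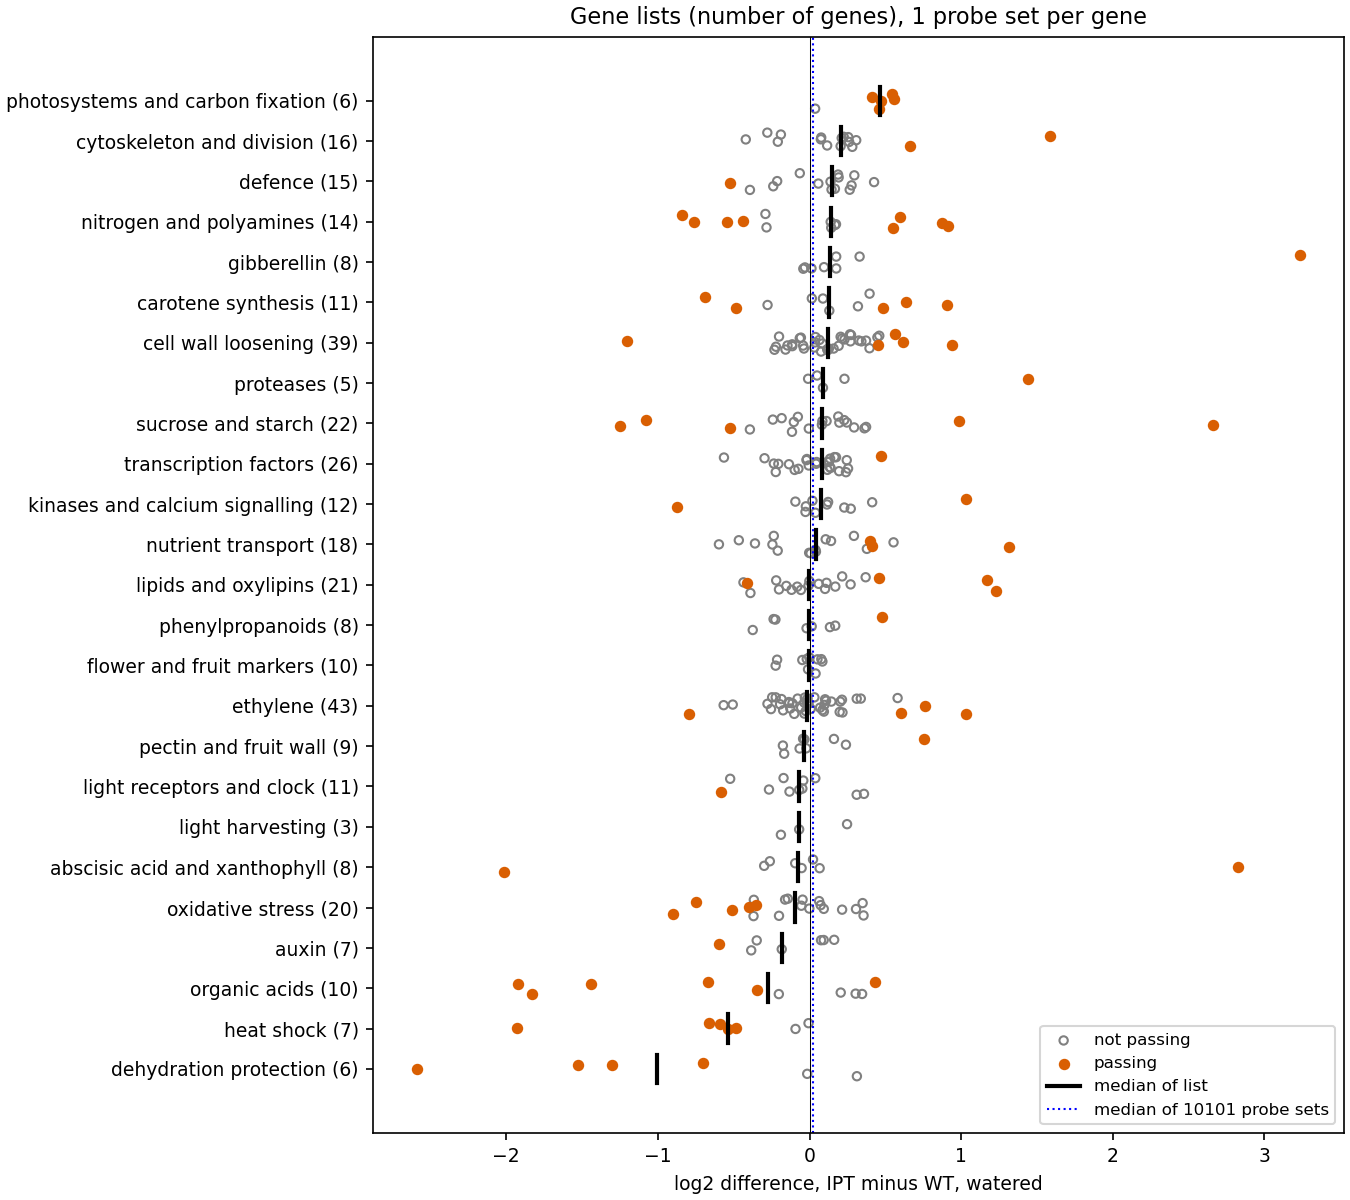
Log2 differences (watered IPT minus WT) of the genes of 25 lists with at least 3 genes, 1 probe set a gene, ordered by the median of the list (bar). Filled points passed; the dehydration list (median -1.0) and the heat-shock list (-0.53) lie lowest and the photosystem list (0.46) highest, against 0.02 over all probe sets (dotted line).

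The same genotypes were compared on other arrays under water deficit, which share no array with the watered comparison, although the fit pools the spread of all groups. There 1682 probe sets passed, 16.7% of those tested, 8.24% higher and 8.42% lower. Of the 1396 watered calls, 777 passed in the same direction under water deficit, which is 55.7% of the watered and 46.2% of the water-deficit calls, and 29 passed in the opposite direction. The share was 56.0% of the higher calls (436) and 55.2% of the lower ones (341). The sign was the same for 1242 of the 1396 (89.0%). The share with equal sign over all probe sets was not counted, so no excess is read from this. Of the 151 probe sets with a symbol 105 passed in the same direction under water deficit.

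Calls of the gene groups can be set side by side in the 2 conditions. Dehydration genes lower in IPT leaves numbered 5 under water deficit and 4 in watered leaves, heat-shock genes 4 and 5, and organic acid genes 6 and 5. Photosystem genes that were higher numbered 5 in each. Counts of other lists differed more, but no list was tested for a change between the conditions. Cell wall genes that were higher numbered 8 under water deficit and 4 in watered leaves, and lower ones 5 and 1. Transcription factors that were lower numbered 4 and 0, and higher ones 0 and 1. The share of all named genes that passed under water deficit was not counted. Over all probe sets 16.7% passed under water deficit and 13.8% in watered leaves. All 3 light-harvesting genes were higher under water deficit and none in watered leaves, and this difference between conditions was not tested for the list; for CAB6A it was 0.23 (limma adjusted p = 0.58). Several named probe sets kept nearly their watered difference, among them those of GA20OX1 (3.31 under water deficit), VDE (3.00), SBT1 (1.42) and CIP1 (-1.55). The other VDE probe set stood at 1.22 in watered leaves and 0.66 under water deficit (difference of effects -0.55, limma adjusted p = 0.239). That of CIP1 stood at -0.36 and -0.02 and passed in neither condition.

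The difference between the genotype effects of the 2 conditions, water deficit minus watered, passed for 192 probe sets (1.9%), 121 of them among the watered calls, and 1432 had an unadjusted p under 0.05. Of the 151 probe sets with a symbol it passed for 9. The watered arrays enter both the watered calls and this test, so neither the 121 nor the 9 rests on separate data. FRK2 had 7.85, 8.08 and 7.89 in IPT leaves under water deficit, against 6.80, 6.90 and 6.53 in WT leaves, so the genotypes stood 1.20 apart there and 2.66 apart when watered (difference of effects -1.46, SE 0.17, limma adjusted p = 0.000112). FRK2 was higher in WT leaves under water deficit than in watered WT leaves (1.31) and did not pass between the conditions in IPT leaves (-0.16). LOC543605 (-1.23) and LOC543802 (-0.87) became further apart: both were lower in IPT leaves and the WT level was higher under water deficit (1.34 and 0.92).

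Fad7, the brightest probe set of ca2 and 1 probe set of XTH16 were higher in IPT leaves in both conditions, and by more under water deficit. Fad7 had 7.49, 7.54 and 7.46 in IPT leaves under water deficit, against 5.42, 5.12 and 5.18 in WT leaves (2.26 apart, difference of effects 1.80, SE 0.17, limma adjusted p = 1.77e-05). The brightest ca2 probe set had 11.81, 11.77 and 11.78 in IPT leaves, against 9.11, 8.28 and 9.16 in WT leaves (2.94 apart, difference of effects 2.38, SE 0.25). For the ca2 probe sets at 0.77 and -0.13 in watered leaves, the difference of effects was 2.23 and 0.38 (limma adjusted p = 0.00195 and 0.48). For the one at 0.76 it did not pass. In that probe set of XTH16 the difference of effects was 1.29 (SE 0.24, limma adjusted p = 0.00686), and with the 3' minus 5' covariate it did not pass (0.84, adjusted p = 0.231). In the other 2 probe sets of XTH16, 1 of which stands for the gene in its list, the difference of effects did not pass (0.06 and 0.27, limma adjusted p = 0.931 and 0.576). WT leaves under water deficit lay below watered WT leaves in Fad7 (-1.37), in the brightest ca2 probe set (-2.62) and in that XTH16 probe set (-2.05). For the other XTH16 probe sets this difference was -0.46 and -0.02 (limma adjusted p = 0.0436 and 0.962). The poly-A controls also differed between watered and water-deficit WT arrays, with levels of 9.88 to 9.93 against 7.38 to 8.12. Their 3' minus 5' difference was 2.17 to 2.32 against 3.82 to 5.44. The part of these controls in the differences between WT leaves was not tested.

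LOC544153 was lower in watered IPT leaves (-0.83) and stood at 0.41 under water deficit, which did not pass (difference of effects 1.24, limma adjusted p = 0.00197). DDTFR18 stood at 0.38 in watered leaves (limma adjusted p = 0.0414) and was lower in IPT leaves under water deficit (-0.50, difference of effects -0.88). Of the 6 fits without 1 array its watered call passed only in that without WT replicate 1 (adjusted p up to 0.16), and not with the replicate number as a block (0.0527), centred arrays (0.0753), quantile normalization (0.0637) or only the 6 watered arrays (0.0507), so its direction in watered leaves is not firm. LOC543654 stood at 0.39 in watered leaves (limma adjusted p = 0.0369), and that call passed only without IPT replicate 2 or WT replicate 3 among those fits (up to 0.153) and not with the 3' minus 5' covariate (0.118), the block (0.0548), centred arrays (0.0633), quantile normalization (0.054) or only the 6 watered arrays (0.0626). PTOX and MKK4 stood at -0.13 and 0.13 under water deficit, and their differences of effects (-1.04 and -0.90) missed the threshold (limma adjusted p = 0.0623 and 0.053).

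**Figure D5:**
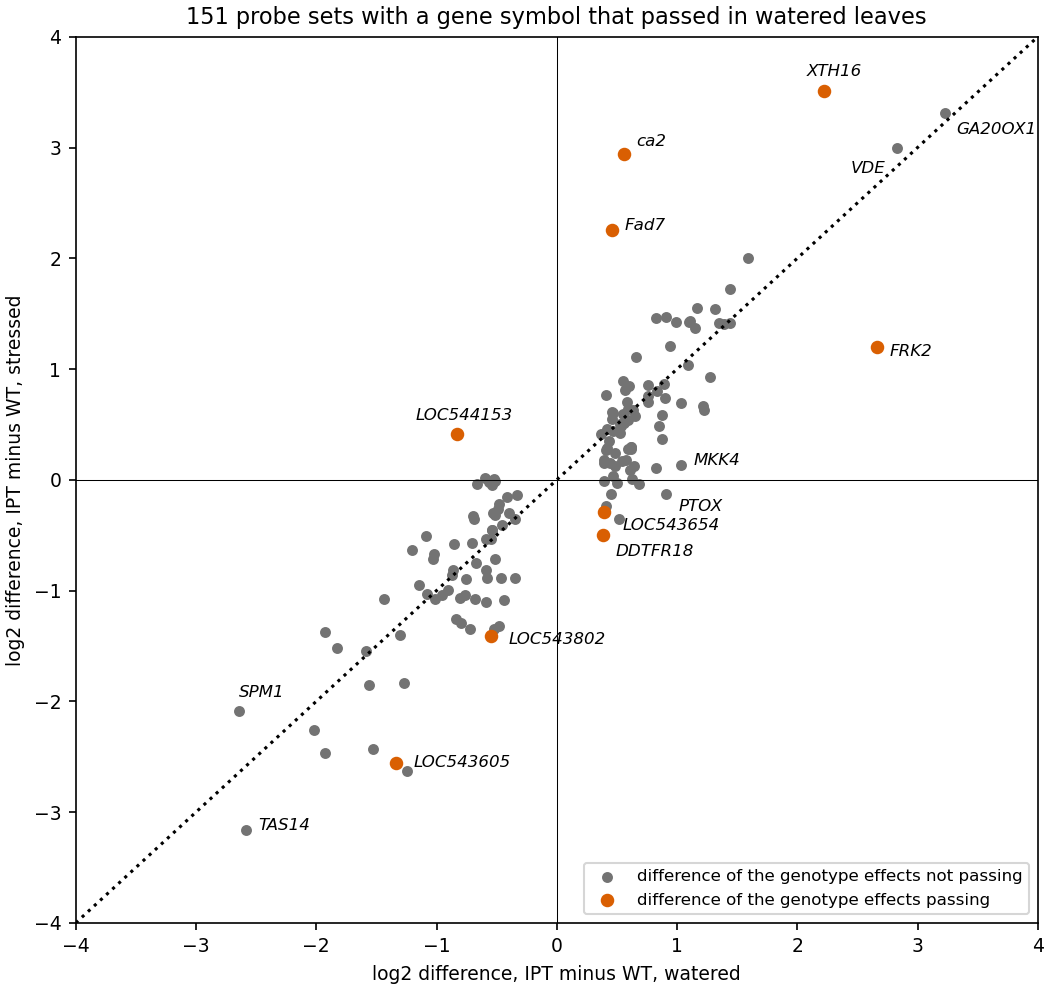
Genotype differences (log2, IPT minus WT) of the 151 probe sets with a symbol that passed in watered leaves, watered across and under water deficit upwards. The dotted line marks equal differences; orange points are the 9 probe sets whose difference of effects passed, among them FRK2 (2.66 and 1.20), Fad7 (0.46 and 2.26) and ca2 (0.55 and 2.94).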

How the data were processed

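Leaf RNA of 12 samples was measured with the Affymetrix Tomato Genome Array after conversion to biotinylated cRNA, made from 6 µg of Trizol-extracted total RNA per the labels' protocols. The authors deposited log2 values, made by RMA per the submitters' processing notes. RMA subtracts background, brings arrays to a common distribution and summarises each probe set. The sources used here give neither version nor settings of RMA; the scale was inferred from the range of the values, 1.28 to 13.84. Neither scanner files nor detection calls were used, so how far a signal lay over background is unknown, and the number of arrays limits the precision.

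Of 10209 probe sets, 108 controls were set aside and the model was fitted to the other 10101, dim ones included. The platform's annotation table gave 1 symbol to 909 of them and several to 0; gene roles are background knowledge. One mean for each of 4 groups was fitted over the 12 arrays by limma 3.58.1 in R 4.3.3 (functions lmFit and eBayes, two-sided, 8 residual and 7.99 prior degrees of freedom), with p-values adjusted by Benjamini-Hochberg over all probe sets tested. The steps were checked on simulated data. Where the labels do not say that samples came from separate plants, p-values measure only the spread between these samples. For the controls, two-sided exact permutation tests set 3 arrays against 3.

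The arrays compared, the 28 gene lists and the tests were chosen with earlier results of these data known, and list members were later added or dropped by symbol. A gene was represented in its list by its probe set of highest mean. Genes were named if among the 15 largest differences in each direction with a symbol and past the threshold, if a list member that passed, or if the member of smallest p in a list with none. Up to 6 of each sign were named for the difference of effects, and 2 without a symbol in each direction. Any other member in the text was picked with its values in view.

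Alternatives were the 6 watered arrays alone, the replicate number as a block, median-centring, quantile normalization, only probe sets above the median level, an intensity trend with robust moderation (statmod 1.5.0), array weights, a covariate for the 3'-to-5' gap of the poly-A controls, a minimum log2 difference of 1, other probe sets of a gene, and leaving out each watered array.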

Additional observations from a re-analysis of the deposited data

Results flagged for a closer look

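These results stood out because the genotype difference under water deficit differed from that in watered leaves by the limma test of the difference itself. The difference of effects, water deficit minus watered, was positive for the brightest probe set of ca2 (2.384), Fad7 (1.798), 1 probe set of XTH16 (1.293) and LOC544153 (1.238). It was negative for the probe set LesAffx.64333.1.S1_at (-1.699), FRK2 (-1.464), LOC543605 (-1.225), DDTFR18 (-0.8824), LOC543802 (-0.8654) and LOC543654 (-0.6761). LesAffx.64333.1.S1_at had 6.99, 6.95 and 7.18 in IPT leaves under water deficit, against 4.54, 4.69 and 4.57 in WT leaves.

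On the arrays of the water deficit, the 3'-to-5' gap of the poly-A controls was 3.48 to 3.69 in IPT leaves, against 3.82 to 5.44 in WT leaves. With that gap as a covariate, XTH16 (0.84, limma adjusted p = 0.231), LOC543802 (-0.90, 0.0552) and LOC543654 (-0.48, 0.396) did not pass, and the other 6 genes with a symbol did. LOC543654 also missed the threshold in every fit without 1 watered array except that without IPT replicate 2 (limma adjusted p up to 0.135).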

How the results depend on the processing

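Without each of the 6 watered arrays in turn, 966 to 1124 probe sets passed between the watered genotypes, against 1396 with all arrays, with 546 to 597 higher and 420 to 527 lower. Under water deficit 1582 to 1661 passed in those fits, the difference of effects passed for 134 to 183, and 625 to 655 passed in the same direction in both conditions. Each of these fits has fewer samples. Against a minimum log2 difference of 1, a stricter test by construction, 67 passed in watered leaves (33 higher and 34 lower), 94 under water deficit, 9 for the difference of effects and 43 in both conditions. The difference of effects passed for 192 probe sets, for 300 among probe sets above the median level, where fewer were tested, for 332 with an intensity trend and robust moderation, and for 105 with the 3'-to-5' covariate; the cause was not tested. The sign turned for Psy1 in its other probe sets (0.284 and 0.1201), for ca2 in another (-0.1333) and for SSTLE1, a trichome marker that did not pass, with values of -0.1414 to 0.05345 without 1 array. Of 95 named probe sets that passed, 63 passed in all 6 fits without 1 array, 80 with the 3'-to-5' covariate, 87 with centred arrays, 88 with quantile normalization, 86 with only the watered arrays and 16 against the minimum difference of 1. With the replicate number as a block 1304 passed (717 higher and 587 lower), 86 of the 95 among them. Watered arrays of the same number did not deviate together (r of 0.00587, 0.0419 and 0.042 across probe sets), so the numbers were not taken to pair samples; each of the 3 watered IPT arrays deviated most like the WT array of its own number, a hint from the data and not from the design. Without detection calls, folds are uncertain where a genotype lies under the median probe set level of 3.42, as GA20OX1 does in WT leaves (2.56) and HSP17-6 (3.14) and BMY3 (2.95) do in IPT leaves.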

Other observations

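SAHH and LOC543709 stood further apart between the genotypes under water deficit (1.47 and 1.46) than in watered leaves (0.91 and 0.82), and the differences of effects (0.56 and 0.63) missed the threshold (limma adjusted p = 0.0676 and 0.0863). In LOC543709 watered IPT leaves had 6.94, 6.87 and 6.90, against 5.83, 6.21 and 6.21 in WT leaves. Both passed among probe sets above the median level (limma adjusted p = 0.0217 and 0.0406) and neither with the 3'-to-5' covariate (0.308 and 0.332).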
